A study of Mus musculus with 10 samples.

Results

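Lung tumours of 3 mice given SHP099 together with SX682 (the combination) were compared with those of 3 mice given vehicle, separately within every cell cluster that the authors deposited. All cells of these 6 mice were taken, 25047 of the 44986 single cells of the study. The combination mice gave 4239, 5421 and 2934 cells and the vehicle mice 6399, 3422 and 2632. SHP099 is an inhibitor of the phosphatase SHP2, the product of Ptpn11. SX682 inhibits CXCR1 and CXCR2. Every mouse, treated or not, had received KP cells into a vein, where KP names a lung adenocarcinoma line that has lost p53. The line is syngeneic with its host, forms nodules in the lung, and the mice were dosed for 11 days. Nodules were dissociated, live cells were enriched on beads, and the cells of the 3 mice of a treatment carried hashtags and went through a single capture. The capture and the treatment therefore cannot be told apart, and the p-values of the gene and share tests per cluster measure the spread between mice inside a capture. The 12594 combination barcodes and the 12453 vehicle barcodes had 201 sequences in common, and within a capture no barcode was shared.

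SHP2 relays signals from receptor tyrosine kinases to RAS and the ERK kinases, and ERK activity raises the transcription of its own feedback inhibitors such as Dusp6 and the Sprouty genes. CXCR2 is the receptor by which neutrophils follow the ELR chemokines Cxcl1, Cxcl2, Cxcl3 and Cxcl5 into inflamed tissue and tumours. Tumour cells at low oxygen stabilize HIF-1, which binds short motifs such as ACGTG and GCGTG near genes of glucose uptake and glycolysis. Interferon gamma from T and NK cells induces guanylate-binding proteins and the MHC genes in surrounding cells, endothelium included.

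The clusters carry numbers only. They were named here from their leading genes and from lists of markers. Of the 33 clusters, 29 had at least 10 cells in each of the 6 mice and were tested. UMI counts were summed per mouse in each cluster, giving sums of 7751 to 10418156 UMIs from 10 to 686 cells. Clusters 12 (classical monocyte-like), 16 (macrophage-like and monocyte-like with Arg1), 22 (unnamed) and 24 (alveolar and airway epithelial-like) were too small in at least 1 mouse for gene tests. The combination mice had fewer UMIs per cell, with medians of 1562, 1532 and 1632.5 against 2824, 3102.5 and 4838 in the vehicle mice. These medians run over all cells of a mouse, so they also depend on its mix of clusters. The part of sequencing depth in them was not tested. Levels are given as CPM, the UMIs of a gene scaled to a common library total with normalised library sizes, for combination mice 1, 2 and 3 and then vehicle mice 1, 2 and 3. A gene was called at a Benjamini-Hochberg adjusted p below 0.05 in edgeR's quasi-likelihood test, and changes are log2 fold changes of the combination over vehicle, with the standard error after the sign ±. Many genes below were named partly because their groups did not overlap, so groups that were apart restate that choice. Among all tested genes, groups did not overlap in 17.85% (cluster 11) to 33.15% (cluster 21).

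The promoters of 3 genes on which the results turn are shown because 2 of them, Pgk1 and Bnip3, belong to the hypoxia and glycolysis genes that were lower in many clusters, and the other, Cyp1a1, had the largest gain in endothelial-like cells. They are RefSeq windows of 300 bases on GRCm38.p6, from 250 bases before the start of the gene to 50 after it, at chrX:106186850-106187149 on the plus strand, chr7:138909457-138909756 on the minus strand and chr9:57697363-57697662 on the plus strand. Capitals mark ACGTG or GCGTG, or their reverse complements CACGT and CACGC.
Pgk1: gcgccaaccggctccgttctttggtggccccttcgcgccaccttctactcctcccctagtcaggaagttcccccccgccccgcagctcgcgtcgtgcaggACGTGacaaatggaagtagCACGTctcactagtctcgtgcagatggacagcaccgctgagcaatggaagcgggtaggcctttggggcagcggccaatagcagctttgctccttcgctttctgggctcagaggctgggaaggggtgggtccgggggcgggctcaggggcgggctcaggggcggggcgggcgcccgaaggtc
Bnip3: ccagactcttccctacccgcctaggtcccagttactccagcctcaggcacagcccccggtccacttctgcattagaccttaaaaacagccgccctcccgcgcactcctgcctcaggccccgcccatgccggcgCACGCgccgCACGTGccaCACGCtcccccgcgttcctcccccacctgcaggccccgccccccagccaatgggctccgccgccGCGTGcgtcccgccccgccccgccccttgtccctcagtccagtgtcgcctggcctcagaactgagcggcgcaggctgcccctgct
Cyp1a1: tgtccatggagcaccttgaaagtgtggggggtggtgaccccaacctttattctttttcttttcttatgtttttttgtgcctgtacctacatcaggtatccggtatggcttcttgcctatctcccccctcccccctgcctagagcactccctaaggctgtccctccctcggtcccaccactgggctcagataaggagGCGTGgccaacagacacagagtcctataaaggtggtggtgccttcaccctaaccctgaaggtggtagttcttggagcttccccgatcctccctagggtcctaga
Both strands were searched. Pgk1 held 2 matches to ACGTG. Bnip3 held 2 matches to ACGTG, which overlap on opposite strands, and 3 to GCGTG. The Cyp1a1 window, which lies at a start inside the annotated span of the gene, held 1 match to GCGTG, the core of the element bound by the aryl hydrocarbon receptor. Of 21 genes in the hypoxia and glycolysis list, 19 had a window, and 23 of their 28 windows (82.1%) held either motif, against 14380 of all 32851 windows (43.8%). The median GC content was 64.5% in the list's windows and 52.7% in all windows. These matches describe the letters in the windows and not binding.

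The combination tumours had a different cell composition. Cycling T cell-like cells (cluster 5) made up 2.38%, 2.34% and 1.57% of the cells in the combination mice and 0.484%, 0.438% and 0.570% in the vehicle mice. The 2 groups were apart, and the log2 change was 2.08 ± 0.48 (adjusted p = 0.00385). Macrophage-like and monocyte-like cells with Arg1 (cluster 16) moved the other way, with 0.165%, 0.646% and 0.239% against 7.09%, 5.26% and 12.6%. Here the change was -4.52 ± 0.63 (adjusted p = 9.5e-05), the widest of all 33 clusters, and no combination mouse came near a vehicle mouse. Arg1 encodes arginase, an enzyme of suppressive tumour macrophages.

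Of the 6 neutrophil-like clusters, 3 made up more of the combination samples. Cluster 30, with the chemokine genes Ccl3 and Ccl4, held 7.17%, 6.11% and 10.9% of combination cells and 1.20%, 1.20% and 0.950% of vehicle cells (2.84 ± 0.56, adjusted p = 0.00144). Cluster 32, with Cxcl3, held 2.19%, 3.71% and 3.41% against 0.844%, 0.409% and 0.608% (2.30 ± 0.44, adjusted p = 0.00144). Cluster 28, with Siglecf, held 6.39%, 6.77% and 7.02% against 2.48%, 2.89% and 2.62% (1.33 ± 0.45, adjusted p = 0.0375). In each of the 3 clusters every combination mouse was above every vehicle mouse. The call of cluster 28 was lost in all 6 fits that left out 1 mouse (1.29 to 1.40). Clusters 29, 31 and 33 did not pass (0.64, 0.24 and -0.88, adjusted p = 0.246, 0.708 and 0.246).

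A pair of dendritic clusters and 1 tumour cluster made up less of the combination samples. Type 1 dendritic-like cells (cluster 18), which present antigen to CD8 T cells, were at 1.06%, 0.646% and 0.784% against 1.59%, 2.95% and 5.02% (-1.93 ± 0.55, adjusted p = 0.0144). Type 2 dendritic-like cells (cluster 19) were at 1.20%, 0.959% and 0.613% against 2.61%, 4.35% and 2.89% (-1.81 ± 0.42, adjusted p = 0.00385). Migratory dendritic-like cells (cluster 17) did not pass (1.20%, 1.18% and 1.33% against 1.22%, 1.69% and 1.82%, adjusted p = 0.416). Tumour epithelial-like cells with Lypd8 and Muc3 (cluster 21) were at 3.02%, 2.93% and 4.91% against 9.31%, 7.10% and 14.4% (-1.51 ± 0.40, adjusted p = 0.0105). None of these 3 clusters had overlapping groups. The calls of clusters 18 and 21 held in only 3 of 6 leave-one-mouse-out fits, with changes from -2.26 to -1.44 and from -1.79 to -1.18.

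In all, the share of 4 clusters was higher (12.1% of 33) and that of 4 was lower (12.1%). Clusters 5, 16, 19, 30 and 32 passed under all 10 alternatives run for shares. An exact two-sided permutation test of 3 against 3 mice gave 0.1 for each of the 8 clusters, the smallest p it allows. The second tumour cluster, cluster 23 with Hmga2, also had groups that were apart, at 3.33%, 4.80% and 3.20% against 8.24%, 8.18% and 7.64%, but its adjusted p was 0.0867. These are shares of the recovered cells, so fewer cells of a type and more cells of the others cannot be told apart, and neither can a share that dissociation or enrichment set.

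**Figure D1:**
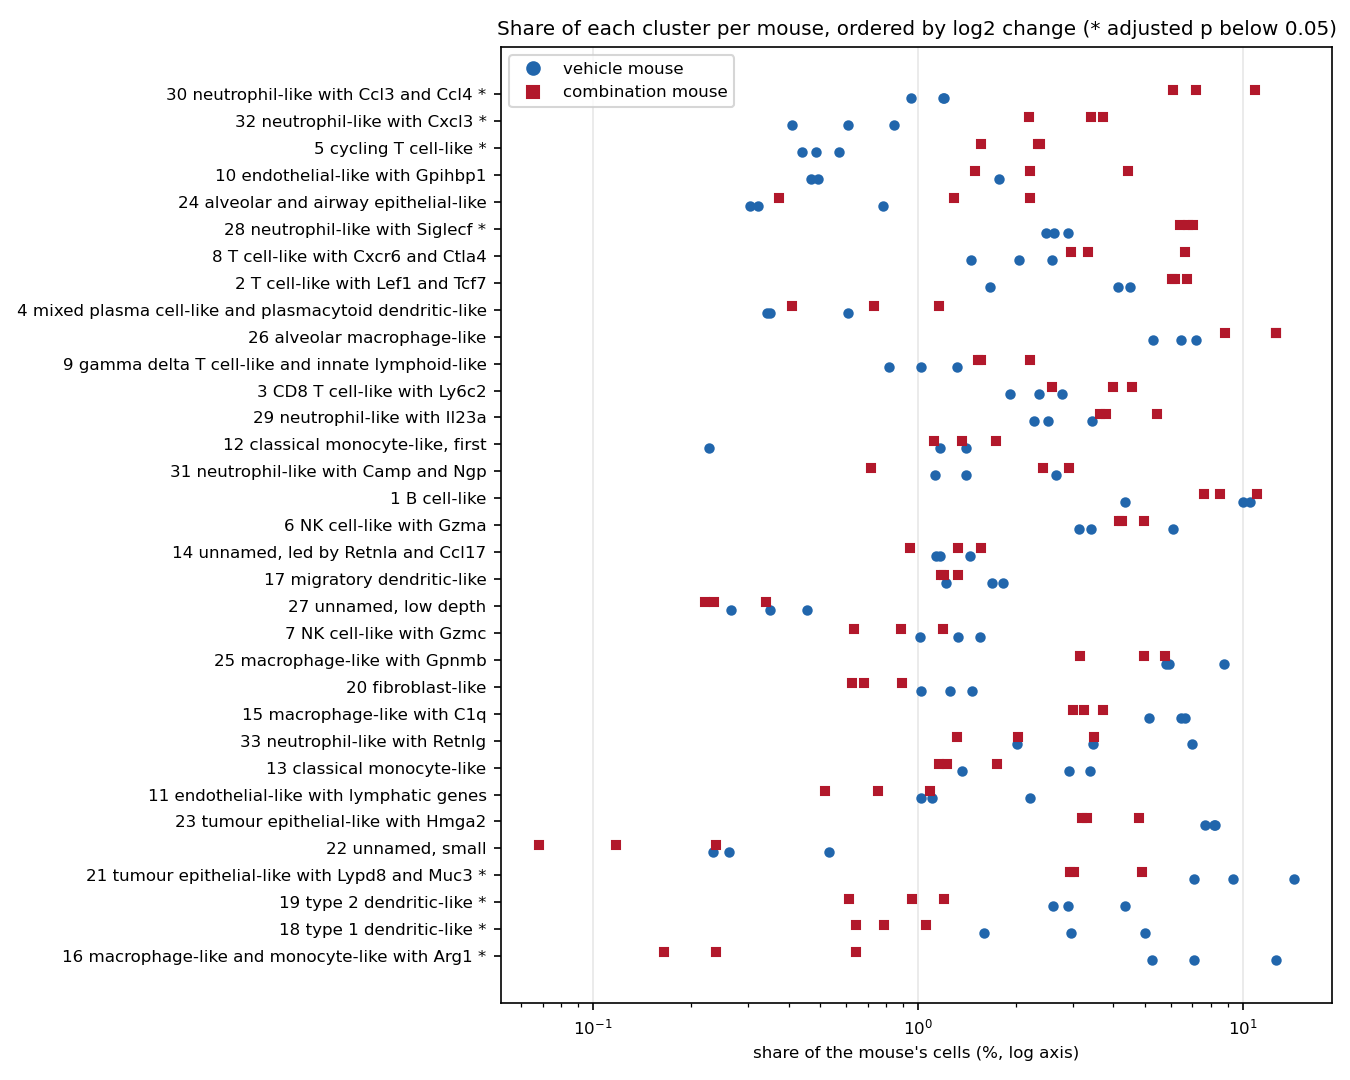
Share of each mouse's cells (percent, log axis) in all 33 clusters, with combination mice as red squares and vehicle mice as blue circles, ordered by log2 change; an asterisk marks an adjusted p below 0.05. Cluster 30 is at the top, at 6.11% to 10.9% against 0.950% to 1.20%, and cluster 16 at the bottom, at 0.165% to 0.646% against 5.26% to 12.6%.

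Gene changes were most numerous in the tumour cells and in macrophage clusters 26 and 25. In tumour cluster 21, 456 of 9161 genes were higher (4.98%) and 443 lower (4.84%). In tumour cluster 23, 388 of 9936 were higher (3.9%) and 497 lower (5.0%). The alveolar macrophage-like cluster 26 had 315 of 7681 genes higher (4.1%) and 296 lower (3.85%), and the macrophage-like cluster 25 with Gpnmb had 289 of 8530 higher (3.39%) and 170 lower (1.99%). In the fibroblast-like cluster 20 the calls leaned downward, with 85 of 7634 higher (1.11%) and 177 lower (2.32%).

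Among the other cells of the myeloid line, classical monocyte-like cells (cluster 13) had 117 of 2868 genes higher (4.08%) and 58 lower (2.02%), and the macrophage-like cluster 15 with C1q had 88 of 8850 higher (0.994%) and 100 lower (1.13%). Dendritic cells had fewer, with 0.631% higher and 0.401% lower in migratory cluster 17, 0.417% and 0.437% in type 1 cluster 18, and 1.01% and 1.29% in type 2 cluster 19. The unnamed cluster 14, led by Retnla and Ccl17, had 0.676% higher and 0.92% lower. Endothelial-like cells with Gpihbp1 (cluster 10) had 49 of 3966 higher (1.24%) and 39 lower (0.983%), while those with lymphatic genes (cluster 11) had 1 of 3367 higher (0.0297%) and 4 lower (0.119%).

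Lymphoid cells were led by B cell-like cluster 1, where 182 of 5826 genes were higher (3.12%) and 133 lower (2.28%), and by NK cell-like cluster 6 with Gzma, where 120 of 3982 were higher (3.01%) and 95 lower (2.39%). The T cell-like clusters had 1.16% higher and 1.27% lower (cluster 2, with Lef1 and Tcf7), 1.31% and 1.02% (cluster 3, CD8 with Ly6c2), 0.514% and 0.561% (cluster 5, cycling), 1.61% and 1.73% (cluster 8, with Cxcr6 and Ctla4) and 1.25% and 0.766% (cluster 9, gamma delta and innate lymphoid). NK cell-like cluster 7 with Gzmc had 1.05% higher and 1.11% lower.

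In the 6 neutrophil-like clusters, 2.28% of genes were higher and 1.78% lower in cluster 28, 1.71% and 2.02% in cluster 29, 0.967% and 1.16% in cluster 30, 0.315% and 0.495% in cluster 31, 0.191% and 0.669% in cluster 32, and 2.52% and 2.39% in cluster 33. In clusters 4 and 27 no gene passed (0.0% in each direction by edgeR), with 186 of 1434 and 28 of 184 genes at an unadjusted p below 0.05. Over the 29 clusters, 5216 calls were made on 2622 of 12213 genes, 2637 of them higher (2.1% of 125624 tests) and 2579 lower (2.05%). Leaving out 1 mouse gave 2682 to 3603 calls in all, and sums over equal numbers of cells gave 2606. The number of cells and their depth differ between clusters, and the counts are not ranked by effect for that reason.

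**Figure D2:**
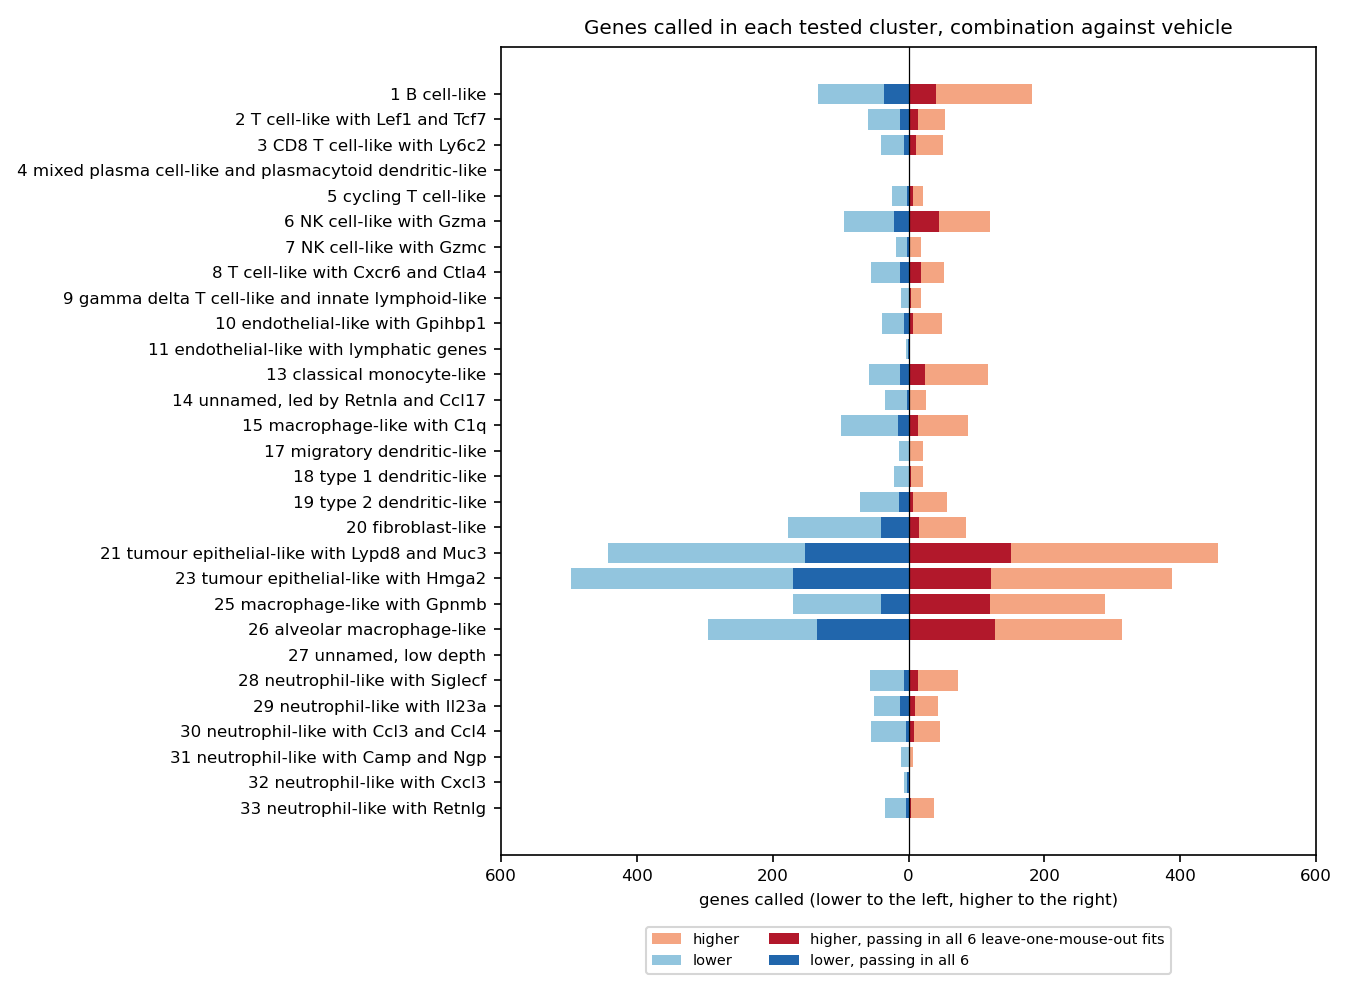
Genes called in each of the 29 tested clusters (number of genes, lower to the left and higher to the right), with the part that passed in all 6 leave-one-mouse-out fits in dark colour. The longest bars belong to tumour cluster 21 (456 higher, 443 lower) and tumour cluster 23 (388 higher, 497 lower).

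Most called genes were called in 1 cluster (1619 of 2622). A small group of 48 genes was called in 10 or more clusters, 28 higher and 20 lower, none of them in both directions. The gene called in most was Chchd2, which encodes a mitochondrial protein of the intermembrane space and was higher in 24 of 28 clusters. In NK cluster 6 it was at 647, 673 and 652 CPM against 335, 275 and 326 CPM (1.09 ± 0.15, adjusted p = 8.39e-06), so each combination mouse had about the same level and each was above the vehicle mice. Genes of small ribosomal proteins followed, with Rps28 in 22 of 28 clusters, Rps29 in 21, Rpl38 in 20 and Rpl37a in 20 of 29, then the copper chaperone Cox17 in 18. Genes of respiratory chain and ATP synthase subunits were also higher, Atp5mpl in 16 and Ndufb1-ps and Atp5md in 15.

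The genes lower in most clusters were Rpl29 (19 of 28 clusters), Rplp0 (17), the elongation factor gene Eef1a1 (17 of 29), the initiation factor gene Eif3f (16 of 27), the lipid carrier gene Apoe (15 of 27) and the cold-shock RNA-binding gene Rbm3 (15). Rplp0 in T cluster 2 was at 4809.7, 5079.6 and 4812 CPM against 7085, 7076 and 8209.6 CPM, a change of -0.60 ± 0.08 (adjusted p = 1.17e-05). Ribosomal genes thus moved both ways. Many of these genes have near-identical processed pseudogenes, so their counts are uncertain where reads could be split.

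Transcript length moved with the change in almost every cluster. Among genes at 7 or more log2 CPM, those with a median annotated transcript under 500 nucleotides had a median log2 change above 0 in 27 of 28 clusters, with a median over clusters of 0.21. Genes of 700 to 1000 nucleotides had a median above 0 in 2 of 29 clusters, with a median over clusters of -0.10, and genes over 4000 nucleotides had 0.09. Rps28 in NK cells shows how the 4 captures lay. It was at 1352, 1439.9 and 1278 CPM in the combination mice and at 1535, 1690 and 1585 CPM in the mice given SHP099 alone, against 807, 862 and 789 CPM in vehicle mice and 687, 506 and 730 CPM in mice given SX682 alone. The captures with SHP099 were high and the captures without it low, with no overlap. The part of capture or depth in the length pattern was not tested. Scaling by transcript length gave 4657 calls in all, against 5216 without it. The overlap between those sets of calls was not counted.

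**Figure D3:**
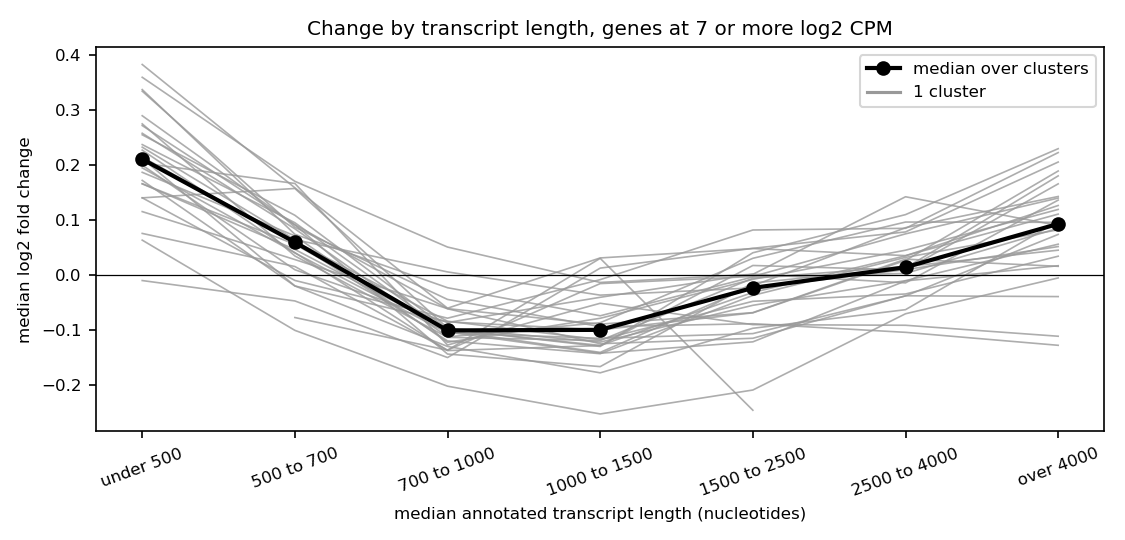
Median log2 fold change (combination over vehicle) of genes at 7 or more log2 CPM, by median annotated transcript length in nucleotides, with a grey line per cluster and the median over clusters in black. The black line starts at 0.21 for transcripts under 500 nucleotides, falls to -0.10 at 700 to 1000 and ends at 0.09 over 4000.

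Scgb1a1, the secretoglobin of airway club cells, was higher in 19 of 23 clusters, few of which should express it. In NK cluster 6 it was at 214, 318 and 120.1 CPM against 4.58, 4.44 and 0 CPM (5.75 ± 0.54, adjusted p = 1.71e-08). The captures split another way here, since mice given SX682 alone had 264, 165 and 209 CPM and mice given SHP099 alone had 4.26, 0 and 0 CPM. In T cluster 2 the vehicle mice had no UMI of Scgb1a1, and the combination mice had 107, 7519 and 64.1 CPM, at least 792-fold higher against a floor of 3 UMIs over the vehicle group. That value rests on combination mouse 2. The share of alveolar and airway epithelial-like cells (cluster 24), the cells with the highest Scgb1a1, was 2.22%, 1.29% and 0.375% against 0.781%, 0.321% and 0.304% (adjusted p = 0.148, groups overlapping). Plasma cell genes behaved less widely, with Igkc, Igha or Jchain higher in 6 of 27 clusters. The part of free RNA in other results was not tested. Leaving out, in each cluster, every gene below 5% of its level in its highest cluster gave 5689 calls. That count comes from an adjustment over fewer genes and does not measure the part of free RNA.

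The gene of the first drug target was not called in any cluster. Ptpn11 (chr5:121130533-121191397 in GENCODE vM21 on mm10, minus strand), the gene of SHP2, was tested in 16 clusters and called in none of them by edgeR, with changes from -0.76 to 0.94 and a lowest adjusted p of 0.243. In tumour cluster 23 it was at 51.9, 51.1 and 47.8 CPM against 52.6, 49.6 and 49.8 CPM. Both groups lay within a few CPM of each other. SHP099 acts on the protein, and the transcript level does not report on its activity. Of the other genes of the SHP2 and RAS pathway, Map2k1 and Map2k2, the genes of the MEK kinases, were lower in tumour clusters 21 and 23. Over all clusters 5 of 221 tests of this list were lower (2.26%, near the 2.05% of all genes) and none higher. Map2k1 in cluster 21 was at 49.4, 54.4 and 53.4 CPM against 82.2, 77.8 and 86.5 CPM (-0.65 ± 0.16, adjusted p = 0.0151), and the call was lost without any 1 of the 3 combination mice or vehicle mouse 3 (-0.69 to -0.61).

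The CXCR2 ligand genes Cxcl5 and Cxcl1 were higher in both tumour clusters, and Cxcl2 was called in cluster 21 alone of them. Cxcl5 (chr5:90759360-90761624, plus strand) in tumour cluster 21 was at 209, 218 and 323 CPM against 29.4, 26.9 and 43.0 CPM, and in tumour cluster 23 at 303, 469.9 and 455 CPM against 68.3, 67.9 and 77.8 CPM. Every combination mouse was several-fold above every vehicle mouse, and the changes were 2.91 ± 0.28 (adjusted p = 1.5e-05) and 2.53 ± 0.26 (adjusted p = 4.63e-05). Cxcl1 was higher in the same 2 clusters, at 293, 220.1 and 256 CPM against 98.9, 113 and 112 CPM in cluster 23 (1.25 ± 0.31, adjusted p = 0.0212). Its call was lost with DESeq2 (1.25) and in 5 of 6 leave-one-mouse-out fits, without combination mouse 1 or 3 and without each vehicle mouse (1.14 to 1.27). In cluster 21 Cxcl1 was at 85.6, 85.2 and 44.5 CPM against 42.9, 13.4 and 16.7 CPM (1.46 ± 0.35, adjusted p = 0.0133), a call lost without combination mouse 1 or 2 or vehicle mouse 3 (1.21 to 1.32).

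Cxcl2 was at 6304, 5427 and 6037 CPM against 3102, 2115 and 1893 CPM in cluster 21 (1.32 ± 0.23, adjusted p = 0.00155) and was also higher in T cluster 2, NK cluster 6 and monocyte cluster 13. The calls of clusters 2 and 6 were lost with DESeq2 (1.39 and 2.01), at equal cell numbers (3.11 and 1.78) and in 4 and 3 of 6 leave-one-mouse-out fits (1.03 to 1.13 and 1.49 to 1.58), and that of cluster 13 at equal cell numbers (0.97). Its mean level over the 4 clusters was 2.85% to 14.7% of that in neutrophil cluster 29, where it peaks, in the combination mice, and 0.834% to 4.87% in the vehicle mice. Neutrophil markers rose beside it in monocyte cluster 13, where 5 of 7 tested markers were higher and their summed level was 7545 to 14550 CPM against 3102 to 4609 CPM. In cluster 6 the sum was 1947 to 3823 CPM against 143 to 2753 CPM. Their part in these results was not tested. In tumour cluster 23 Cxcl2 did not pass, at 1139, 806 and 1357 CPM against 566, 339 and 515 CPM (1.21 ± 0.51, adjusted p = 0.162 by edgeR). It was called there with no count filter (1.18) and with the combination and vehicle mice alone (1.21). Cxcl5 was tested in 3 clusters, and its lowest change, -2.28, was not called. The tests of the difference between clusters 21 and 23 gave no call for Cxcl5 (0.41 ± 0.20, adjusted p = 0.556), Cxcl1 (0.26 ± 0.46, adjusted p = 0.920) or Cxcl2 (0.14 ± 0.39, adjusted p = 0.961).

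Elsewhere the chemokines moved down or both ways. Cxcl3 was lower in neutrophil clusters 29 and 32, at 338, 634 and 399 CPM against 1882, 1036 and 1212 CPM in cluster 29 (-1.62 ± 0.25, adjusted p = 0.000213), and higher in macrophage clusters 15 and 25. The call of cluster 32 was lost at equal cell numbers (-1.90) and without combination mouse 1 or 3 or vehicle mouse 3 (-1.86 to -1.17). Cxcl1 was lower in macrophage cluster 15, at 14.1, 1.92 and 0 CPM against 16.9, 44.5 and 241 CPM (-4.26 ± 1.06, adjusted p = 0.0474). That difference rests largely on vehicle mouse 3, and the call was lost in 5 of 6 leave-one-mouse-out fits, with -2.60 without that mouse.

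Cxcr2 showed no call in the cells that carry most of its RNA, while Cxcr1 was called higher where it is highest. Cxcr2 (chr1:74153989-74161246, plus strand) was not called in any neutrophil cluster by edgeR, with changes from -0.37 to 0.19 and adjusted p from 0.658 to 0.977. In cluster 32, its highest, it was at 649, 526 and 417 CPM against 533, 287 and 768 CPM, and the groups overlapped. It was higher in tumour clusters 21 and 23 and in macrophage cluster 25, at 16.2, 9.98 and 7.74 CPM against 2.27, 0.703 and 1.98 CPM in the last (2.55 ± 0.53, adjusted p = 0.00759). The calls of clusters 21 and 23 were lost at equal cell numbers (0.92 and 1.30) and without combination mouse 2 or vehicle mouse 3, further without combination mouse 3 in cluster 21 and vehicle mouse 2 in cluster 23 (0.83 to 1.26 over both). Those levels were 2.02% to 11.0% of that in cluster 32 in the combination mice and 0.312% to 5.21% in the vehicle mice. In cluster 25 the 8 neutrophil markers summed to 1044 to 2355 CPM against 647 to 1104 CPM, and their part was not tested. Cxcr1 was tested in 3 clusters and was higher in alveolar macrophage cluster 26, where it is highest, at 147, 140.2 and 107 CPM against 53.1, 65.4 and 32.1 CPM (1.32 ± 0.18, adjusted p = 6.85e-05).

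Genes of hypoxia and glycolysis were lower, most widely in fibroblast-like and tumour cells. In fibroblast cluster 20, 15 of 21 tested members fell, with a list median of -1.72 against -0.04 for all tested genes. In tumour cluster 21 it was 14 of 20 (median -1.17 against 0.01), and in tumour cluster 23 12 of 20 (median -0.83 against 0.02). Alveolar macrophage cluster 26 had 6 of 18 and neutrophil cluster 28 5 of 16. In all 28 clusters with a tested member the list median lay below that of all genes, and 21 clusters had at least 1 lower member, for 84 lower calls among 397 tests (21.2%). Vegfa, the vascular growth factor gene, was the only member called higher, in monocyte cluster 13 and macrophage cluster 15, and it was lower in fibroblast cluster 20.

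Pgk1, a glycolytic kinase with the 2 ACGTG matches shown above, was at 406, 291 and 210.2 CPM against 1482, 1193 and 1231 CPM in tumour cluster 21. The change was -2.11 ± 0.27 (adjusted p = 0.000186), with every combination mouse far below the vehicle mice. In tumour cluster 23 it was at 231, 242 and 234 CPM against 787, 608 and 754 CPM (-1.60 ± 0.16, adjusted p = 4.56e-05). In fibroblast cluster 20 it was at 156, 182 and 58.0 CPM against 784, 681 and 800.1 CPM (-2.43 ± 0.35, adjusted p = 0.0046). In cluster 21 the mice given SHP099 alone had 356, 701 and 371 CPM, partly within the range of the combination mice, and those given SX682 alone had 604, 831 and 1115 CPM, between the groups. Pgk1 was also lower in alveolar macrophage cluster 26 (104, 95.4 and 102 CPM against 163, 167 and 154 CPM, -0.69 ± 0.14, adjusted p = 0.00295), a smaller step with tight groups.

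Bnip3, which encodes a mitophagy receptor of hypoxic cells, was at 26.8, 27.2 and 19.4 CPM against 141, 124 and 139 CPM in cluster 23 (-2.42 ± 0.34, adjusted p = 0.000456). In endothelial cluster 10 it was at 58.3, 56.2 and 39.7 CPM against 256, 232 and 392 CPM (-2.32 ± 0.38, adjusted p = 0.00078). Both clusters had groups far apart. In cluster 21 it was at 212, 71.6 and 63.2 CPM against 444, 356 and 341 CPM (-1.74 ± 0.42, adjusted p = 0.0135), where combination mouse 1 stood above the other two, and the call was lost without combination mouse 2 or 3 (-1.50 and -1.45). The difference between clusters 21 and 23 was 0.58 ± 0.38 (adjusted p = 0.696).

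Glucose is taken up by Slc2a1 and turned to lactate by Ldha, and lactate leaves through Slc16a3. Ldha in cluster 21 was at 862, 625 and 568 CPM against 1914, 1882 and 2153 CPM (-1.53 ± 0.24, adjusted p = 0.000644). Slc16a3, which is not in the list and passed the rule for cluster 23, was at 22.7, 27.8 and 29.9 CPM against 135, 90.9 and 143 CPM (-2.19 ± 0.29, adjusted p = 0.000302). Egln3, the oxygen-sensing hydroxylase gene, was at 47.9, 47.2 and 11.6 CPM against 202, 242 and 259.6 CPM in fibroblast cluster 20 (-2.56 ± 0.32, adjusted p = 0.00346). In the same cluster Hk2, Pfkl, Tpi1, Eno1 and Pkm were among the lower members. Slc2a1 was lower there (17.965, 26.98 and 11.6 CPM against 61.0, 88.0 and 95.4 CPM, -1.99 ± 0.41, adjusted p = 0.0243), but its call was lost at equal cell numbers (-2.28), with the mouse number as a block (-1.97) and without vehicle mouse 2 or any 1 combination mouse (-2.32 to -1.82).

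Members fell in immune cells too, fewer at a time. Aldoa was lower in 14 of 28 clusters and Pkm in 13 of 28. NK cluster 7 had Pgk1 at 90.4, 68.6 and 111 CPM against 303, 341 and 303 CPM (-1.82 ± 0.29, adjusted p = 0.00262), and type 2 dendritic cluster 19 had Hilpda, a lipid droplet gene, at 71.0, 145 and 97.0 CPM against 276, 489 and 636 CPM (-2.13 ± 0.34, adjusted p = 0.00273). The Pgk1 call was lost at equal cell numbers (-1.18). Leaving out 1 mouse gave 9 to 14 calls in cluster 20, 9 to 16 in cluster 21 and 9 to 12 in cluster 23, the lowest of each without combination mouse 2 (and, in cluster 21, also without combination mouse 3). In cluster 28 it gave 0 (without vehicle mouse 1) to 5, and at equal cell numbers none of the 5 passed.

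**Figure D4:**
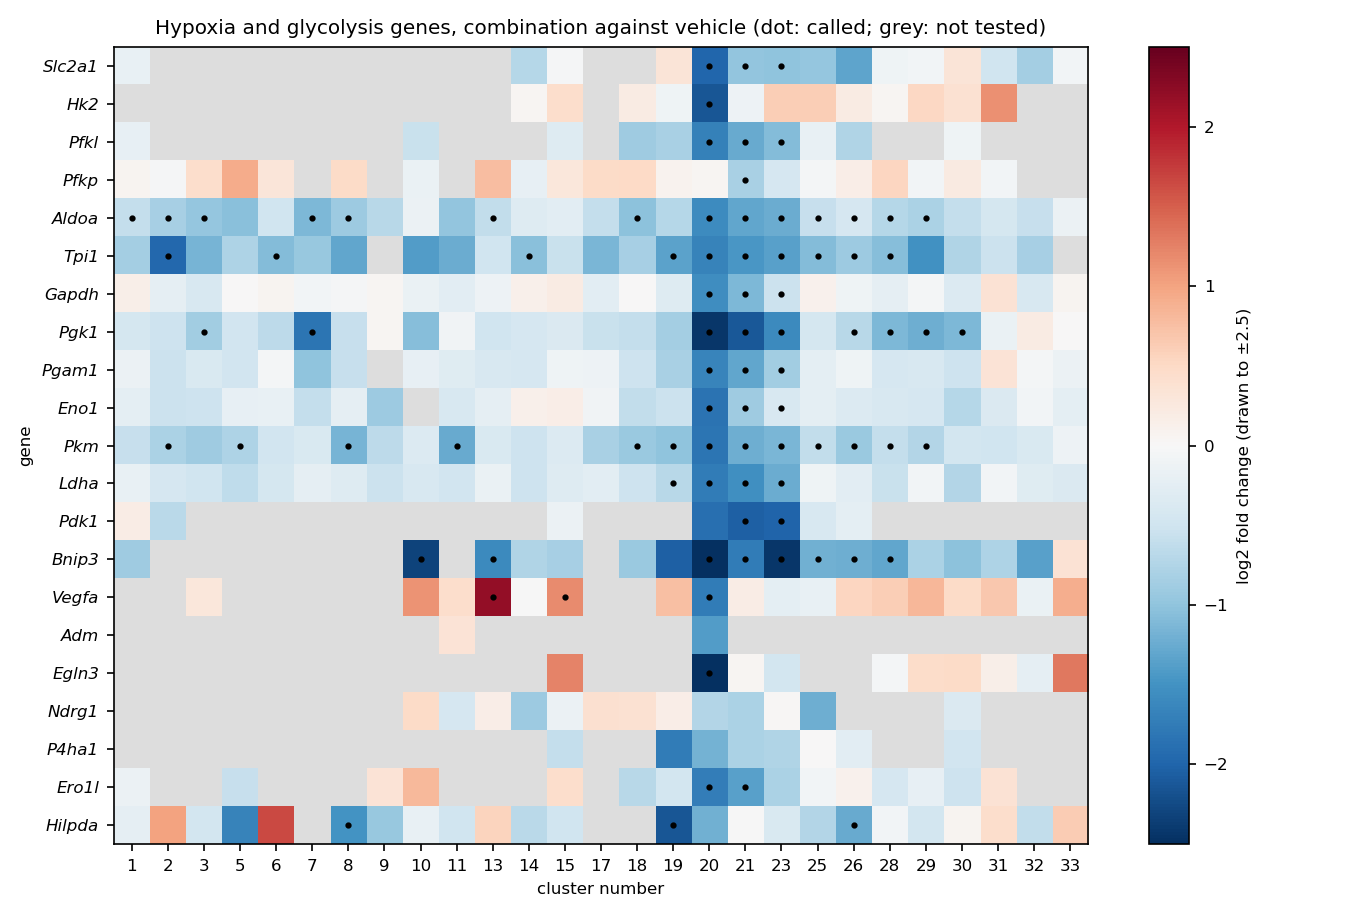
Log2 fold change (colour, drawn to ±2.5) of the hypoxia and glycolysis genes in rows over 27 of the 29 tested clusters in columns; a dot marks a call and grey a gene that was not tested. Columns 20, 21 and 23 carry most of the dots (15, 14 and 12), and Vegfa in columns 13 and 15 has the only dots in red.

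Genes downstream of ERK had more lower than higher calls. Over 28 clusters the ERK output list had 20 lower (11.2%) and 4 higher (2.25%) calls in 178 tests, and its median was below that of all genes in 23 clusters. Dusp6, the ERK phosphatase gene, was at 76.3, 78.7 and 92.7 CPM against 256, 387 and 245 CPM in endothelial cluster 10 (-1.77 ± 0.34, adjusted p = 0.00308), which has its highest level of any cluster. The call was lost without vehicle mouse 1 (-2.02). At equal cell numbers the list had 1 lower call in cluster 10, against 2 with all cells. In alveolar macrophage cluster 26 Dusp6 was at 8.74, 9.63 and 8.38 CPM against 27.9, 20.05 and 48.2 CPM (-1.67 ± 0.33, adjusted p = 0.00232). In both clusters the combination mice lay close together below all vehicle mice. Etv4 was lower in tumour cluster 23 (18.1, 16.3 and 23.9 CPM against 31.7, 28.9 and 34.7 CPM, -0.76 ± 0.17, adjusted p = 0.0136), a call lost without combination mouse 1 or 2 or vehicle mouse 1 (-0.75 to -0.61).

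Ier3, an immediate early gene that protects ERK from dephosphorylation, was lower in endothelial cluster 10 (511, 483 and 397 CPM against 1153, 1588 and 1520.0 CPM, -1.54 ± 0.24, adjusted p = 0.000377), fibroblast cluster 20 (198, 506 and 104 CPM against 1450.1, 1248 and 1735 CPM, -2.40 ± 0.37, adjusted p = 0.00589) and neutrophil cluster 29 (1685, 1333 and 1854 CPM against 3739, 3989 and 2554 CPM, -1.10 ± 0.15, adjusted p = 7.95e-05). Groups were apart in each. Fibroblasts also had Etv5 at 0 in all combination mice, with 35 UMIs over the vehicle mice, at least 2.33-fold lower against a floor of 3 UMIs over the combination group, and its call (adjusted p = 0.0481) was lost with DESeq2, with its size factors, with the mouse number as a block and without any 1 combination mouse or vehicle mouse 3. Myc, a growth regulator and ERK target, was lower in B cluster 1 (64.4, 62.8 and 32.9 CPM against 108, 145 and 172 CPM, -1.25 ± 0.24, adjusted p = 0.00533), a call lost at equal cell numbers (-1.21).

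Immediate early genes, which respond within minutes to growth factors and also to dissociation, had 62 lower (15%) and 8 higher (1.94%) calls in 412 tests over 29 clusters. In fibroblast cluster 20, 10 of 17 were lower (median -1.55 against -0.04 for all genes), and in macrophage cluster 25, 8 of 16 (median -0.93 against -0.02). Jun in cluster 25 was at 97.1, 75.2 and 64.8 CPM against 206, 339.7 and 274 CPM (-1.80 ± 0.18, adjusted p = 6.4e-05), and Fos at 247, 255 and 149 CPM against 474, 527 and 680.1 CPM (-1.37 ± 0.22, adjusted p = 0.00117). No combination mouse reached a vehicle mouse. Leaving out 1 mouse gave 7 to 11 calls in cluster 20 and 5 to 11 in cluster 25. Egr1 went the other way in monocyte cluster 13 (440.1, 233 and 269.6 CPM against 70.4, 47.1 and 125 CPM, 2.12 ± 0.36, adjusted p = 0.00216, lost at equal cell numbers with 1.57) and neutrophil cluster 30 (2049.9, 1730.4 and 1235 CPM against 798, 874 and 830.4 CPM, 1.01 ± 0.18, adjusted p = 0.00273). The part of tissue handling in these genes was not tested.

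Interferon gamma response genes were higher in blood endothelium. In cluster 10, 11 of 16 tested members rose (among them Cxcl10, Gbp2, Gbp4, Ifi47, Igtp, Iigp1 and Irgm1), with a list median of 2.31 against 0.02 for all genes. Gbp2, a guanylate-binding protein gene, was at 287, 539 and 199 CPM against 86.8, 0 and 0 CPM (2.30 ± 0.47, adjusted p = 0.00471), and Iigp1, an immunity-related GTPase gene, at 354, 708 and 212 CPM against 82.0, 38.7 and 0 CPM (2.60 ± 0.50, adjusted p = 0.00308). Both had groups apart.

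The vehicle endothelium was thin, since vehicle mice 2 and 3 had 16 and 13 cells of cluster 10 against 114 in vehicle mouse 1 and 65 to 188 in the combination mice. Without vehicle mouse 1, none of the 11 genes passed (Gbp2 8.52, Iigp1 4.19), without combination mouse 2 it was 5, and at equal cell numbers none. DESeq2 called 7. Cxcl10, a T cell-attracting chemokine induced by interferon gamma, had 40 UMIs over the combination mice and none over the vehicle mice, at least 8.55-fold higher against a floor of 3 UMIs over the vehicle group, and its call was lost without combination mouse 1 or any 1 vehicle mouse. The Gbp and Irgm families hold near-identical copies, so single members are uncertain.

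Gbp2 was also higher in B cluster 1 and monocyte cluster 13. In B cells it was at 33.3, 43.2 and 41.9 CPM against 15.6, 17.8 and 6.61 CPM (1.38 ± 0.33, adjusted p = 0.0175), with the groups apart, and the call was lost without combination mouse 2 (1.28) or vehicle mouse 1 (1.43). Gbp2 in T cluster 2 was at 71.3, 112 and 64.1 CPM against 17.7, 20.1 and 13.9 CPM (2.23 ± 0.40, adjusted p = 0.00183). No member of the list was called lower in any of 27 clusters, and 7 clusters had a higher member.

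MHC class I genes had at least 1 higher member in 19 of 29 clusters, with 50 higher (11.9%) and 2 lower calls in 420 tests. B cluster 1 had 7 of 17, monocyte cluster 13 6 of 14 and alveolar macrophage cluster 26 5 of 16. H2-K1, a classical class I heavy chain, was at 1569, 1109 and 935 CPM against 443, 426 and 461 CPM in neutrophil cluster 33 (1.40 ± 0.20, adjusted p = 8.5e-05), at 1595, 1488 and 1413 CPM against 733, 757 and 1048 CPM in monocyte cluster 13 (0.86 ± 0.16, adjusted p = 0.00365) and at 736, 811 and 803 CPM against 483, 538 and 489 CPM in alveolar macrophage cluster 26 (0.64 ± 0.14, adjusted p = 0.00512). Groups were apart in all 3. B2m, the light chain, was at 6437, 6789 and 5589 CPM against 3439, 2710.4 and 3726 CPM in endothelial cluster 10 (0.93 ± 0.19, adjusted p = 0.0044), lost at equal cell numbers (0.60). In cluster 1 leaving out 1 mouse gave 1 to 6 calls and in cluster 13 1 to 5, the lowest without vehicle mouse 1. Without combination mouse 3 or vehicle mouse 3 it gave 3 in cluster 26.

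In each tumour cluster 2 class I members were higher, H2-Q6 and H2-Q7 in cluster 21 and Calr and Tapbp in cluster 23. H2-K1 in cluster 21 was at 924, 867 and 858 CPM against 886, 1142 and 1989.5 CPM (-0.60 ± 0.26, adjusted p = 0.164 by edgeR, but called at -0.65 with no count filter), and the groups overlapped. In endothelial cluster 10 H2-K1 was not called either (0.70 ± 0.21, adjusted p = 0.0695 by edgeR). It was called there in some other fits, such as that without combination mouse 3 (0.80). The change in cluster 10 exceeded that in cluster 21 by 1.45 ± 0.34 for H2-K1 (adjusted p = 0.00604) and by 1.27 ± 0.34 for B2m (adjusted p = 0.0282), in a comparison that called 0.596% of genes. Both p-values took the spread as known and do not measure that between mice. Type I interferon genes Ifit1, Ifit3, Irf7 and Oasl1 were lower in cluster 21 (4 of 14 tested, median -1.13 against 0.01). Over all clusters the list had 12 higher calls in 8 clusters and 5 lower in 2, among them 3 higher in cluster 33 and 2 each in clusters 10 and 19. Irf7, a regulator of that response, was at 30.7, 43.5 and 41.0 CPM against 93.3, 83.5 and 170.2 CPM (-1.58 ± 0.26, adjusted p = 0.00101). Ifit1 was at 7.68, 11.8 and 8.01 CPM against 33.3, 35.0 and 146 CPM (-2.96 ± 0.81, adjusted p = 0.0281), high in vehicle mouse 3, with the call lost without that mouse (-1.88) or any 1 combination mouse (-3.20 to -2.87) and with DESeq2 (-2.98). The list count was 1 without combination mouse 2 or 3 or vehicle mouse 3 and 2 without combination mouse 1.

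MHC class II genes went opposite ways in endothelium and B cells. Cd74, the class II invariant chain, was at 5154, 5350.0 and 2728 CPM against 1727, 1549 and 785 CPM in endothelial cluster 10 (1.62 ± 0.29, adjusted p = 0.0021), and at 13251, 13657 and 12886 CPM against 23583, 24745 and 22478 CPM in B cluster 1 (-0.83 ± 0.07, adjusted p = 8.64e-07). Combination mice were all above vehicle mice in the first and all below them in the second. The difference between the 2 changes was 2.53 ± 0.22 (adjusted p = 1.43e-26), and it was 1.52 ± 0.27 for H2-Aa, 1.70 ± 0.30 for H2-Ab1 and 2.10 ± 0.29 for H2-Eb1 (adjusted p = 1.64e-05, 2.06e-05 and 2.04e-09), in a comparison that called 0.381% of 8927 genes. Those p-values took the spread as known and do not measure that between mice. Markers moved beside these changes. In cluster 1 the B cell markers (4 of 5 lower) summed to 4174 to 4932 CPM against 6636 to 7739 CPM, and all 6 T cell markers were higher. In cluster 10 the endothelial markers (1 of 7 lower) summed to 9345 to 10050 CPM against 12660 to 13900 CPM. Their part was not tested. At equal cell numbers none of the 4 class II calls in cluster 10 was made (Cd74 1.55, H2-Eb1 1.47 and H2-Ab1 1.15). The H2-Eb1 call was also lost without combination mouse 1 or 2 or vehicle mouse 2 or 3 (1.05 to 1.21). That of H2-Ab1 was also lost with DESeq2 (1.02) and with no count filter (1.13). It was lost too without any 1 mouse other than combination mouse 3 (0.94 to 1.11).

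In all, 4 of 7 tested class II genes rose in cluster 10, while 6 of 10 fell in B cluster 1, 5 of 10 in type 2 dendritic cluster 19 and 4 of 5 in neutrophil cluster 29. H2-Aa in cluster 19 was at 8848, 8938 and 8409 CPM against 13806, 12946 and 11961 CPM (-0.56 ± 0.07, adjusted p = 0.000428). In cluster 29 Cd74 was at 571, 361 and 329 CPM against 597, 2628 and 1164 CPM (-1.76 ± 0.32, adjusted p = 0.00163), 1.76% of its level in dendritic cluster 19 in the combination mice and 4.28% in the vehicle mice. The 8 macrophage markers summed to 299 to 354 CPM against 343 to 1126 CPM in that cluster, and their part was not tested. Leaving out vehicle mouse 1 gave 4 calls in cluster 1. In cluster 10, 2 calls were made without any 1 mouse other than combination mouse 3, and none at equal cell numbers.

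**Figure D5:**
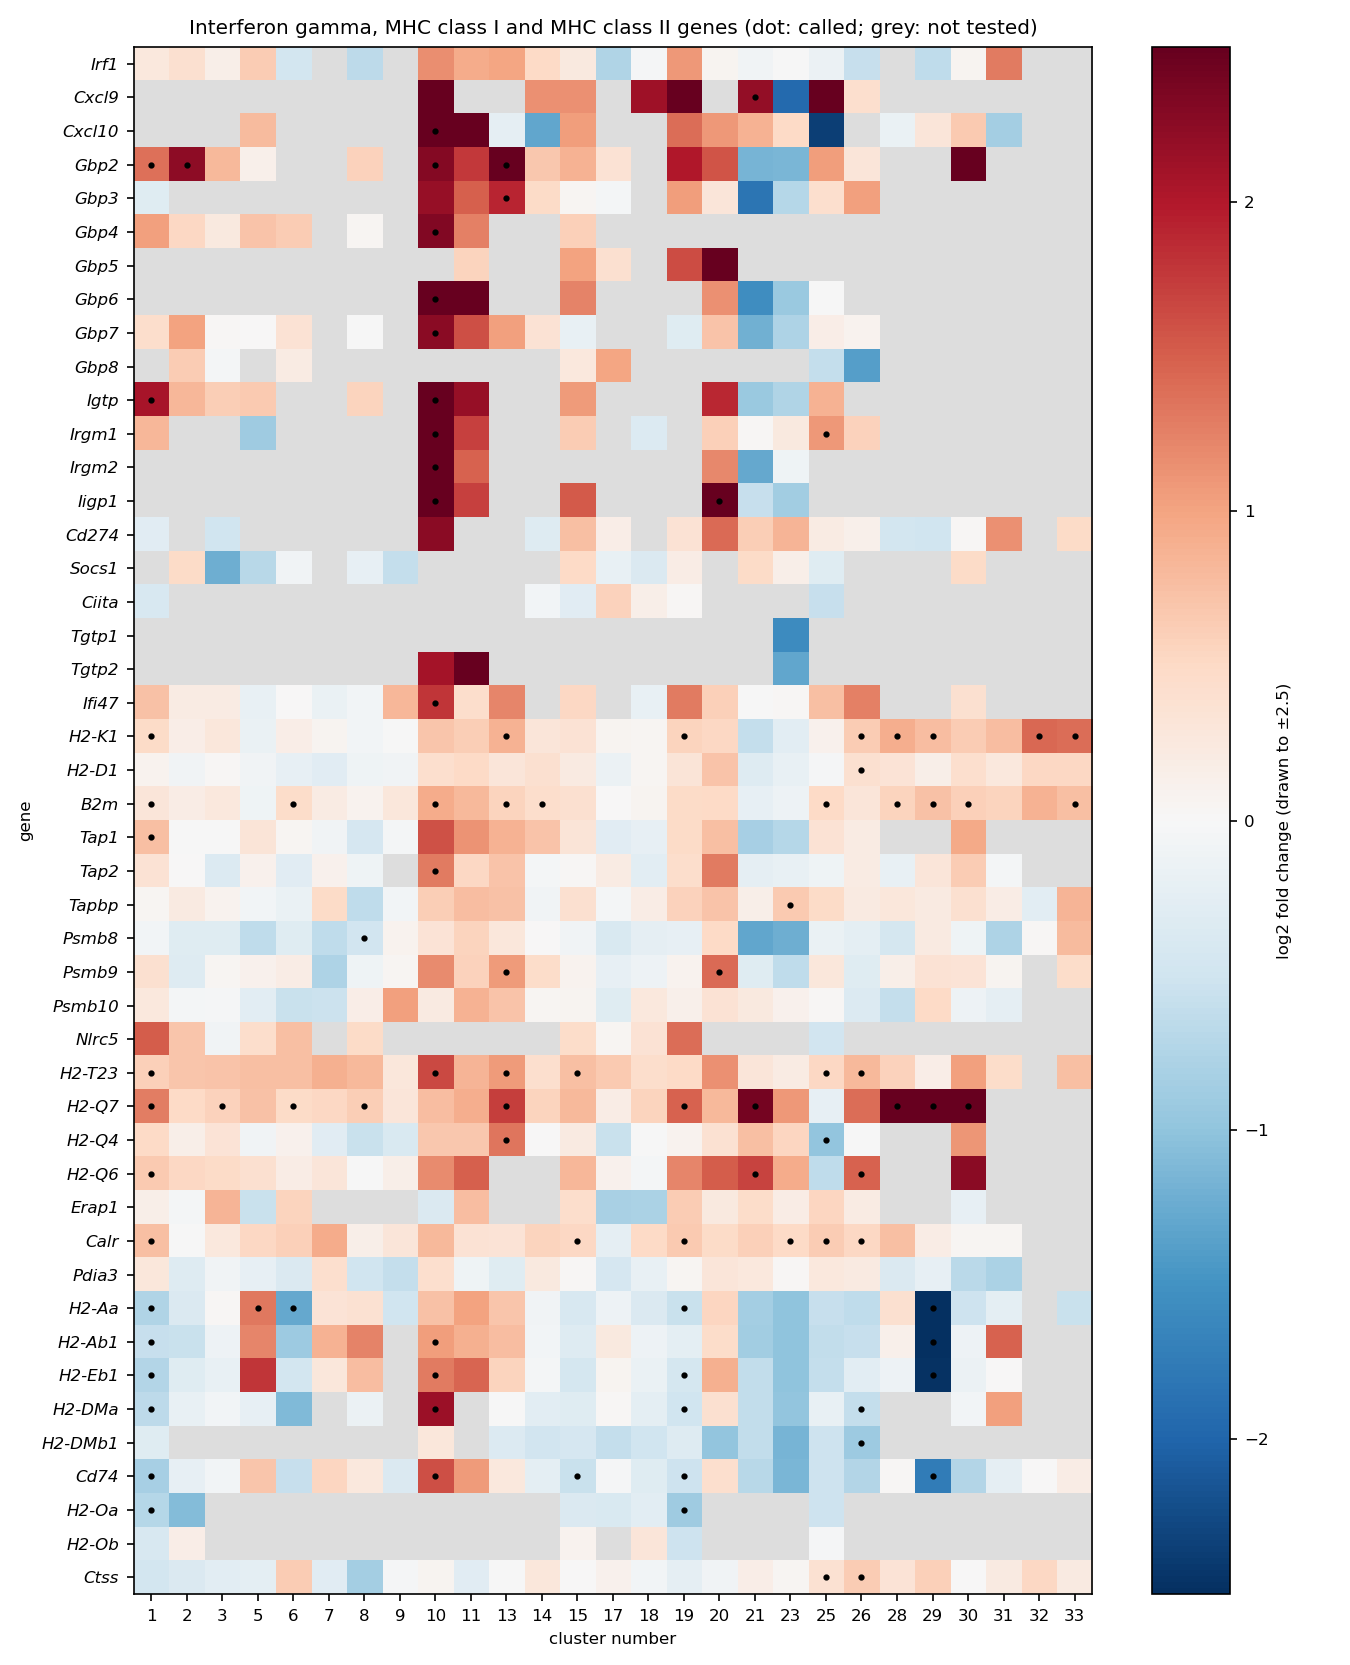
Log2 fold change (colour, drawn to ±2.5) of interferon gamma response genes that are reported here, MHC class I and MHC class II genes in rows over 27 of the 29 tested clusters in columns; a dot marks a call and grey a gene that was not tested. Endothelial column 10 is red in all 3 blocks (10, 3 and 4 dots), and B cell column 1 is red for class I and blue for class II (7 and 6 dots).

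Endothelial cluster 10 had a further change in Cyp1a1 (chr9:57687928-57703824, plus strand), a cytochrome P450 and classical target of the aryl hydrocarbon receptor. It was at 1153, 843 and 278 CPM in the combination mice, and no UMI was seen over the 3 vehicle mice. This is at least 75.4-fold higher against a floor of 3 UMIs over the vehicle group (adjusted p = 5.81e-06). The 1 mouse given SHP099 alone with enough cells had 1347 CPM, and 2 mice given SX682 alone had 21.4 and 102 CPM. Gstp1, a glutathione transferase gene, was higher too, at 1844, 1956 and 848 CPM against 410.0, 194 and 294 CPM (2.18 ± 0.31, adjusted p = 0.000156). Sema3c, a guidance factor gene of capillaries, was at 1772, 1978 and 2291 CPM against 1023, 736 and 883 CPM (1.13 ± 0.21, adjusted p = 0.0027). Ankrd37, a hypoxia-induced gene outside the list, was at 35.9, 33.7 and 26.5 CPM against 139.9, 465 and 490.3 CPM (-2.93 ± 0.54, adjusted p = 0.0027). Calls of the last 3 were lost at equal cell numbers (1.54, 0.64 and -6.03). The 7 endothelial markers summed to 9345 to 10050 CPM against 12660 to 13900 CPM, 1 of 7 lower, and their part was not tested.

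Tumour cluster 21 gained genes that neutrophils express. Of the aged and tumour neutrophil list, 10 of 16 tested members were higher in cluster 21 (median 1.09 against 0.01 for all genes) and 9 of 16 in cluster 23 (median 0.84 against 0.02). Ccl3, a chemokine gene, was at 472, 424 and 451 CPM against 108, 78.7 and 89.9 CPM in cluster 21 (2.27 ± 0.16, adjusted p = 6.18e-07), 11.4% of its level in neutrophil cluster 30 in the combination mice and 3.94% in the vehicle mice. Csf1, the macrophage growth factor gene, was at 70.2, 56.2 and 88.2 CPM against 8.93, 9.60 and 11.6 CPM (2.83 ± 0.31, adjusted p = 6.28e-05). Groups were far apart for both. The 8 neutrophil markers summed to 8849 to 12550 CPM against 4640 to 10050 CPM in cluster 21 (5 of 8 higher) and to 1433 to 2297 CPM against 821 to 1221 CPM in cluster 23 (4 of 8 higher). Their part in these calls was not tested. Without 1 mouse, 9 or 10 members passed in cluster 21 and 4 to 6 in cluster 23, the lowest without vehicle mouse 1.

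The tumour clusters also had lower epithelial genes. The 8 tumour epithelial markers summed to 7356 to 7486 CPM against 11870 to 14150 CPM in cluster 21 (4 of 6 tested lower) and to 5305 to 6679 CPM against 8379 to 9158 CPM in cluster 23 (3 of 6 lower). Krt7, a simple epithelial keratin, was at 4.39, 17.2 and 2.67 CPM against 64.1, 78.2 and 99.5 CPM in cluster 21 (-3.27 ± 0.52, adjusted p = 0.000873), and at 17.5, 13.002 and 21.6 CPM against 18.5, 15.7 and 30.5 CPM in cluster 23 (-0.35 ± 0.42, adjusted p = 0.682). The difference between clusters, -2.87 ± 0.64, did not pass (adjusted p = 0.0761, 0.206% of genes called). S100a14, a calcium-binding protein gene of epithelia, was at 12.1, 19.04 and 17.8 CPM against 114, 96.5 and 103 CPM in cluster 21 (-2.66 ± 0.33, adjusted p = 0.000168). Slurp1, Prl2c3 and Ly6m were the other genes with wide losses there, at -2.34 ± 0.44, -2.36 ± 0.48 and -2.44 ± 0.52 (adjusted p = 0.00308, 0.00472 and 0.00694). Prl2c3 has near-identical family members and is uncertain.

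In cluster 23, secreted proteins of tumour epithelium were higher in 5 of 9 tested genes (Agr2, Cp, Lcn2, Muc1 and Wfdc2; median 0.51 against 0.02). Muc1, a transmembrane mucin, was at 43.7, 72.0 and 56.7 CPM against 20.5, 30.6 and 24.9 CPM (1.23 ± 0.19, adjusted p = 0.00121), and Cp, the copper oxidase ceruloplasmin, at 43.7, 44.4 and 66.4 CPM against 19.8, 9.29 and 10.3 CPM (1.84 ± 0.36, adjusted p = 0.00507). Rdh10, a retinol dehydrogenase gene, was at 156, 153 and 154 CPM against 50.4, 67.5 and 55.1 CPM (1.43 ± 0.15, adjusted p = 4.7e-05). All 3 had every combination mouse above every vehicle mouse. Igfbp3, a binding protein of insulin-like growth factors, was at 43.1, 82.8 and 66.4 CPM against 244, 203 and 233 CPM (-1.79 ± 0.17, adjusted p = 2.79e-05), and Tnnt2 at 18.7, 28.7 and 13.4 CPM against 88.9, 58.9 and 96.9 CPM (-1.90 ± 0.31, adjusted p = 0.00173). Leaving out 1 mouse gave 3 or 4 calls among the secreted protein genes, 3 without vehicle mouse 1 or 3.

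Fibroblast-like cells (cluster 20) had 1 of 16 extracellular matrix genes lower (Fn1), none higher and a list median of -0.225 against -0.04. Other genes changed by more. Clec3b, which encodes tetranectin, was at 419, 384 and 568 CPM against 56.3, 21.6 and 13.2 CPM (3.73 ± 0.47, adjusted p = 0.00346), and the matrix genes Dpt (138, 310.3 and 406 CPM against 44.6, 26.9 and 23.8 CPM, 3.01 ± 0.38, adjusted p = 0.00346) and Ogn (371, 351 and 649 CPM against 75.1, 57.5 and 10.6 CPM, 3.10 ± 0.48, adjusted p = 0.00579) rose with it. C7 and Pcolce2 were higher by 3.30 ± 0.55 and 3.11 ± 0.48 (adjusted p = 0.00944 and 0.00579). Cthrc1, a collagen-associated gene of fibrotic lung, was at 11.98, 26.98 and 0 CPM against 148, 119 and 193 CPM (-3.33 ± 0.47, adjusted p = 0.00428), and Cxcl13, the B cell chemokine, at 174, 54.0 and 34.8 CPM against 709.8, 1108 and 797 CPM (-3.19 ± 0.40, adjusted p = 0.00346). No combination mouse overlapped a vehicle mouse for any of them.

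Rgs16, which damps G protein signalling, was also lower in cluster 20, at 0, 6.74 and 0 CPM against 70.4, 71.8 and 55.6 CPM (-4.61 ± 0.67, adjusted p = 0.00471). Ccl21a, the chemokine of lymphatic vessels, was higher at 515, 236 and 684 CPM against 35.2, 0 and 0 CPM (4.90 ± 0.76, adjusted p = 0.00589), a call lost with DESeq2 (5.39). The 5 lymphatic endothelial markers, Ccl21a among them, summed to 492 to 1066 CPM against 0 to 117 CPM in this cluster, while the 7 fibroblast markers summed to 20090 to 31030 CPM against 22240 to 24600 CPM with none called. Tumour epithelial markers summed to 254 to 443 CPM against 697 to 1269 CPM. Their part was not tested. Over all cells of the study, cluster 20 was also high in 5 of 6 smooth muscle and pericyte markers and 3 of 4 mesothelial markers. A change in the mix of cells and a change per cell cannot be told apart in its sums. Cluster 20 held 20 to 38 cells per combination mouse and 27 to 94 per vehicle mouse, with median UMIs of 2788 to 3955.5 against 8124 to 15091. The Cthrc1 call was lost at equal cell numbers (-2.19).

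Alveolar macrophage-like cells (cluster 26) gained a compact set of genes. Wfdc21, a whey acidic protein gene, was at 1161, 1389.6 and 1282 CPM against 135, 189 and 138 CPM (3.04 ± 0.17, adjusted p = 1.97e-10). Mice given SHP099 alone had 1288, 1202 and 1280 CPM and mice given SX682 alone 201, 330 and 377 CPM, so the 2 captures with SHP099 stood together. Car4, a carbonic anhydrase gene, was at 650.4, 562 and 744 CPM against 77.5, 139 and 241 CPM (2.21 ± 0.23, adjusted p = 3.02e-06), Gal, the galanin gene, at 124, 187 and 168 CPM against 40.1, 17.9 and 18.4 CPM (2.53 ± 0.26, adjusted p = 3.02e-06), and Krt79, a keratin gene of these cells, at 232, 142 and 106 CPM against 36.6, 30.6 and 39.0 CPM (2.21 ± 0.25, adjusted p = 9.5e-06). Cxcl14 fell, from 48.8, 55.9 and 71.1 CPM in vehicle mice to 10.8, 13.5 and 6.28 CPM (-2.35 ± 0.23, adjusted p = 2.49e-06). None of these groups overlapped, as was the case for 24.84% of all genes tested in the cluster.

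Genes of cholesterol and fatty acid synthesis rose in cluster 26 (5 of 18 tested, among them Cyp51, Fdps, Hmgcs1 and Idi1, with a median of 0.81 against 0.01) and had no higher call in the other clusters tested. Fdps was at 80.7, 94.4 and 165 CPM against 55.7, 39.0 and 22.9 CPM (1.35 ± 0.29, adjusted p = 0.00507). Leaving out 1 mouse gave 2 to 8 calls, fewest without vehicle mouse 2, where Hmgcs1 (0.70), Idi1 (1.09) and Cyp51 (0.92) were lost. Macrophage lipid and repair genes went both ways, with 7 higher and 4 lower of 17 in cluster 26, 6 higher and 2 lower of 17 in cluster 25, and 25 higher and 33 lower in 307 tests over all clusters. Fabp4, a fatty acid carrier, was at 1461, 1638 and 1403 CPM against 606, 758 and 528 CPM in cluster 26 (1.24 ± 0.15, adjusted p = 1.78e-05) and at 1304, 1569 and 1483 CPM against 365, 350.2 and 506 CPM in cluster 25 (1.84 ± 0.21, adjusted p = 0.000129). The difference between clusters did not pass (0.60 ± 0.21, adjusted p = 0.236, 0.816% of genes called).

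In macrophage cluster 25 Spp1, which encodes osteopontin, was at 5867, 9045 and 7757 CPM against 1906, 4004 and 3433 CPM (1.28 ± 0.22, adjusted p = 0.00229), and Ctsd, a lysosomal protease, at 14206, 13620.1 and 15043 CPM against 8809, 9446 and 9012 CPM (0.65 ± 0.09, adjusted p = 0.00051). Mamdc2 and Ly75 were higher by 1.63 ± 0.30 and 1.31 ± 0.25 (adjusted p = 0.00302 and 0.00455), and Cd83 fell by 1.28 ± 0.23 (adjusted p = 0.00278). Apoe fell in this cluster (9826, 9483 and 11654 CPM against 15726, 15788 and 19407 CPM, -0.72 ± 0.16, adjusted p = 0.0144), a call lost without combination mouse 1 or 2 or vehicle mouse 3 (-0.69 to -0.61). Genes of oxidative phosphorylation were higher in 9 of 18 (median 0.35 against -0.02), and 3 of 8 integrated stress genes (Atf4, Ddit3 and Trib3) were lower. The first list was not particular to this cluster, with 37 higher (7.61%) and no lower calls in 486 tests. It had a higher member in 11 of 28 clusters, and its median was above that of all genes in 26. With transcript-length scaling 7 of its members were higher in cluster 25. Alveolar macrophage markers summed to 1500 to 1663 CPM against 922 to 1186 CPM and macrophage markers to 12390 to 16520 CPM against 21240 to 26580 CPM here, and their part was not tested.

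Macrophage cluster 15, with C1q, lost Apoe (6286, 4036 and 5257 CPM against 11171, 9829 and 10649 CPM, -1.02 ± 0.14, adjusted p = 0.00132), the iron carrier Trf (317, 253 and 266 CPM against 733, 581 and 680.3 CPM, -1.26 ± 0.15, adjusted p = 0.000411), Cd83 (-1.33 ± 0.16, adjusted p = 0.000515), Pltp (-1.42 ± 0.21, adjusted p = 0.00194) and the fractalkine receptor Cx3cr1 (-1.37 ± 0.22, adjusted p = 0.00339). Igf1, a growth factor, rose (187, 119.7 and 186 CPM against 77.7, 64.4 and 74.4 CPM, 1.17 ± 0.20, adjusted p = 0.00518). Groups were apart in each. In monocyte cluster 13 Il1r2, Il1rn and Hdc were higher (2.06 ± 0.33, 1.92 ± 0.36 and 1.82 ± 0.32, adjusted p = 0.00173, 0.00391 and 0.0024) at 10.3% to 12.4% of their highest neutrophil level in the combination mice and 3.33% to 4.5% in the vehicle mice, beside the neutrophil marker sum given above, and were lost at equal cell numbers (1.61, 1.38 and 1.28).

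Dendritic cells had single clear changes. In migratory cluster 17 Ccl22, a chemokine for regulatory T cells, was at 1897, 2415 and 2394 CPM against 1095, 1273 and 1324 CPM (0.86 ± 0.12, adjusted p = 0.00165). In type 1 cluster 18 Erh was higher (192, 223 and 245 CPM against 83.1, 81.0 and 89.7 CPM, 1.35 ± 0.20, adjusted p = 0.00356). In type 2 cluster 19 the inhibitory lectin Cd33 was at 22.2, 23.4 and 10.8 CPM against 70.8, 76.4 and 75.5 CPM (-1.83 ± 0.34, adjusted p = 0.00711) and the chemokine receptor Ccr1 at 57.7, 51.4 and 21.6 CPM against 147, 167 and 141 CPM (-1.65 ± 0.30, adjusted p = 0.0071). S100a4 rose there (0.77 ± 0.11, adjusted p = 0.00161), and Ccl4 fell by 1.13 ± 0.21 (adjusted p = 0.00719), both lost at equal cell numbers (0.88 and -1.46). Cluster 14 lost Btg2, an antiproliferative immediate early gene (409.8, 365 and 291 CPM against 752, 691 and 722 CPM, -1.03 ± 0.14, adjusted p = 0.00261).

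Neutrophil-like cells had lower levels of granule and young-cell genes in all 6 clusters, with 2 to 5 of 11 to 14 tested members lower and none higher. At equal cell numbers clusters 28, 29 and 33 had 2, 2 and 3 lower members and clusters 30, 31 and 32 none. Retnlg, a resistin-like gene of young neutrophils, was at 9895, 7994 and 6522 CPM against 17161, 19036 and 21780.1 CPM in cluster 33 (-1.25 ± 0.17, adjusted p = 8.5e-05) and at 687, 425 and 696 CPM against 2827, 3814 and 1289 CPM in cluster 30 (-2.18 ± 0.29, adjusted p = 3.72e-05, lost at equal cell numbers with -1.58). Lcn2, a granule protein, was lower in cluster 33 (1207, 879 and 1134 CPM against 2050.3, 2197 and 2409 CPM, -1.04 ± 0.19, adjusted p = 0.00219) and in cluster 32 (211, 299 and 263 CPM against 813, 957 and 1152 CPM, -1.79 ± 0.31, adjusted p = 0.00201). Slpi, a protease inhibitor, fell by 0.82 ± 0.17 in cluster 33 (adjusted p = 0.00492). In each case the groups were apart. Chil3 in cluster 29 was at 113, 148 and 182 CPM against 1812, 1434 and 436 CPM (-3.14 ± 0.50, adjusted p = 0.000352), lowest of the vehicle mice in mouse 3. In cluster 31 no member was called without vehicle mouse 1 or 3, and 1 without any 1 combination mouse.

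Other neutrophil genes rose. Cxcr4, the receptor by which aged neutrophils home to marrow, was at 462, 540.0 and 551 CPM against 209, 194 and 248 CPM in cluster 28 (1.28 ± 0.18, adjusted p = 7.69e-05) and at 637, 657 and 650.2 CPM against 358, 199 and 372 CPM in cluster 30 (1.08 ± 0.19, adjusted p = 0.00193, lost at equal cell numbers with 1.09). Acod1, the itaconate synthase gene, was at 373, 501 and 426 CPM against 216, 159 and 124 CPM in cluster 28 (1.31 ± 0.24, adjusted p = 0.00172). The orphan nuclear receptor genes Nr4a3 (1065, 930.0 and 951 CPM against 417, 366 and 436 CPM, 1.27 ± 0.18, adjusted p = 7.95e-05) and Nr4a2 (1446, 782 and 1070.1 CPM against 386, 366 and 679 CPM, 1.29 ± 0.25, adjusted p = 0.00251) were higher in cluster 29. Combination mice were above vehicle mice in each. Cd44 in cluster 28 was higher by 1.07 ± 0.19 (adjusted p = 0.0015) and Car4 lower, at 116, 114 and 92.8 CPM against 425, 361 and 262 CPM (-1.73 ± 0.24, adjusted p = 7.69e-05), both lost at equal cell numbers (1.01 and -1.58).

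Cluster 33, led by Retnlg, gained Basp1 (1134, 1204 and 966 CPM against 339.9, 336 and 359 CPM, 1.67 ± 0.23, adjusted p = 8.5e-05) and Dgat1, a triglyceride synthesis gene (1352, 1339 and 1260.3 CPM against 739.6, 493 and 538 CPM, 1.06 ± 0.20, adjusted p = 0.00219). Cluster 30 gained H2-Q7 (238, 114 and 91.95 CPM against 11.6, 19.9 and 0 CPM, 3.52 ± 0.66, adjusted p = 0.00282), whose near-identical Q-region copies make it uncertain. Ccl5, a T and NK cell chemokine, was at 333, 488 and 609 CPM against 5.78, 0 and 21.9 CPM in cluster 30 (6.17 ± 0.75, adjusted p = 1.67e-05). This is 0.988% of its NK level, and the 6 NK markers summed to 50.8 to 237 CPM against 0 to 5.17 CPM, whose part was not tested. Ccl5 was higher in 8 clusters, among them NK cluster 6 itself (56294, 52310.4 and 36167 CPM against 34540.4, 31819 and 40701 CPM, 0.44 ± 0.10, adjusted p = 0.00703). There the groups overlapped, and the call was lost with DESeq2 (0.43) and without combination mouse 1 or 2 or vehicle mouse 2 (0.32 to 0.37). Of the other 7 calls, that of cluster 3 was lost in all 6 leave-one-mouse-out fits, those of clusters 8 and 28 in 5 and those of clusters 1 and 10 in 4.

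NK cells with Gzma (cluster 6) had higher Mcl1, a survival gene (305, 287 and 274 CPM against 124, 102 and 138 CPM, 1.29 ± 0.22, adjusted p = 0.00027), and Pim2, a kinase gene (176, 224 and 129 CPM against 77.9, 71.1 and 49.3 CPM, 1.38 ± 0.28, adjusted p = 0.00162). Of 13 cytotoxic effector genes, Ccl5 and Cx3cr1 were higher and Gzma, Ifng and Klrd1 lower. Fits without 1 mouse gave 0 to 2 higher and 1 to 3 lower members, and equal cell numbers 1 and 0. Ly6c2 was at 470.4, 668 and 232 CPM against 1302, 1244 and 996 CPM (-1.33 ± 0.21, adjusted p = 0.00011), the receptor gene Klra3 at 187, 136 and 197 CPM against 312, 355 and 404 CPM (-1.04 ± 0.19, adjusted p = 0.000503) and Serpinb9b, a granzyme inhibitor gene, at 74.8, 88.7 and 42.9 CPM against 183, 138 and 266 CPM (-1.33 ± 0.31, adjusted p = 0.00696). Groups were apart in these 5 genes, while Klra genes are close copies and less certain. Gzma itself was at 16056, 16021 and 11913 CPM against 17827, 19747 and 20173 CPM (-0.39 ± 0.09, adjusted p = 0.00493), a call lost at equal cell numbers (-0.35), with length scaling (-0.26) and without combination mouse 3 (-0.25). The 6 NK markers summed to 14290 to 17280 CPM against 19790 to 22260 CPM, with 2 of 6 lower, and their part was not tested.

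T cells with Cxcr6 and Ctla4 (cluster 8) had lower costimulatory and inhibitory receptors of regulatory T cells. Tnfrsf4, which encodes OX40, was at 147, 168 and 95.9 CPM against 680.2, 549 and 965 CPM (-2.35 ± 0.31, adjusted p = 0.00043), Tnfrsf18, which encodes GITR, at 177, 299.7 and 176 CPM against 557, 574 and 851 CPM (-1.59 ± 0.24, adjusted p = 0.000611), and Tigit at 125, 109 and 79.9 CPM against 324, 210.1 and 608 CPM (-1.78 ± 0.34, adjusted p = 0.00503). Izumo1r, a folate receptor gene of regulatory T cells, was at 97.5, 99.9 and 55.9 CPM against 317, 259 and 219 CPM (-1.57 ± 0.29, adjusted p = 0.0038). No combination mouse reached a vehicle mouse in any of the 4. Ctla4 was at 117, 195 and 176 CPM against 298, 299 and 584 CPM (-1.32 ± 0.34, adjusted p = 0.0372), high in vehicle mouse 3, with the call lost without that mouse (-0.92), without combination mouse 1 or 3 (-1.05 and -1.35), at equal cell numbers (-1.39) and with length scaling (-1.20).

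The cluster mixes T cell types. Its 4 regulatory T cell markers summed to 301 to 459 CPM against 730 to 1068 CPM, 3 of 4 lower, and its 2 CD8 markers to 714 to 1092 CPM against 626 to 1177 CPM, none called. A change in the mix of cells and a change per cell cannot be told apart in these sums. Spn, the CD43 sialophorin gene, rose (265, 227 and 272 CPM against 110.1, 88.9 and 122 CPM, 1.24 ± 0.25, adjusted p = 0.00748), as did Cx3cr1 (117, 68.1 and 152 CPM against 12.96, 24.2 and 32.4 CPM, 2.25 ± 0.46, adjusted p = 0.00784). Both calls were lost at equal cell numbers (1.09 and 2.14), and that of Cx3cr1 without vehicle mouse 1 (1.93). The 6 NK markers in cluster 8 summed to 371 to 1657 CPM against 195 to 298 CPM, and their part was not tested.

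In T clusters 2 and 3 the stress-regulated RNA-binding gene Cirbp was lower, at 51.8, 102 and 98.3 CPM against 245, 196 and 237 CPM in cluster 2 (-1.43 ± 0.22, adjusted p = 0.000198) and at 78.6, 45.3 and 96.2 CPM against 194, 200.1 and 168 CPM in cluster 3 (-1.37 ± 0.26, adjusted p = 0.00525), both lost at equal cell numbers (-1.11 and -0.97). Cycling T cluster 5 had Crip1 at 3859, 3385 and 3030.5 CPM against 1185, 1681 and 1693 CPM (1.19 ± 0.18, adjusted p = 0.00349). Lymphatic endothelial cluster 11 had Scgb3a1, a secretoglobin gene that is highest in this cluster, at 147, 148 and 189 CPM against 552, 756 and 872 CPM (-2.14 ± 0.25, adjusted p = 0.00253). The combination mice stood clear of the vehicle mice in all of these.

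B cell-like cells (cluster 1) carried more T cell RNA. All 6 T cell markers were higher and summed to 610 to 911 CPM against 183 to 249 CPM, beside the lower B cell markers given above. Trac, the T cell receptor alpha gene, was at 109, 57.2 and 102 CPM against 18.4, 12.7 and 13.2 CPM (2.40 ± 0.40, adjusted p = 0.0014), 17.5% of its level in T cluster 8 in the combination mice and 2.7% in the vehicle mice. Their part in the other results of the cluster was not tested. Among genes that B cells use, Ccr7, the lymph node homing receptor, was at 186, 162 and 230.4 CPM against 411, 524 and 317 CPM (-1.16 ± 0.20, adjusted p = 0.0022), Dusp2 at 66.6, 64.2 and 95.7 CPM against 219.9, 186 and 271 CPM (-1.58 ± 0.22, adjusted p = 0.000334) and the heat shock gene Hspa1a at 122, 87.9 and 35.9 CPM against 302, 346 and 277 CPM (-1.87 ± 0.33, adjusted p = 0.00235). The combination mice were below the vehicle mice throughout. Calls of Trac and Hspa1a were lost at equal cell numbers (2.63 and -2.001).

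Whether a gene changed differently between cell types was asked in a joint fit of all clusters with the mouse as a term. Of 7334 genes tested in at least 6 clusters, 881 (12%) had changes that differed between clusters. Leaving out 1 mouse gave 453 to 725 genes, and limma with voom gave 2631. Chchd2 was not among them (adjusted p = 0.656), with changes between 0.69 and 1.20 in 28 clusters. Pkm (adjusted p = 4.08e-06), Aldoa (adjusted p = 4.73e-05) and Rps28 (adjusted p = 0.00186) were, although each had 1 direction wherever it was called.

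There were 151 genes called higher in at least 1 cluster and lower in another. For 10 of them, the clusters with the lowest adjusted p in each direction were compared in fits of those 2 clusters. The genes and pairs were chosen with the values known, so a difference was likely in advance. The p-values of these differences are no separate evidence. Nr4a2 and Nr4a3 were higher in tumour cluster 21 (206, 124 and 167 CPM against 32.4, 54.2 and 26.9 CPM for Nr4a2, 2.17 ± 0.35, adjusted p = 0.000873) and lower in fibroblast cluster 20 (23.95, 67.4 and 0 CPM against 177, 169 and 212 CPM, -2.42 ± 0.50, adjusted p = 0.0254). The difference was 4.69 ± 0.63 for Nr4a2 (adjusted p = 0.000134) and 3.85 ± 0.41 for Nr4a3 (adjusted p = 1.94e-05), where 1.76% of genes were called. The fibroblast calls were lost without combination mouse 1 or 3 (Nr4a2 -2.14 and -2.03, Nr4a3 -1.28 and -1.58), and further without vehicle mouse 2 for Nr4a2 (-2.46) and vehicle mouse 1 or 3 for Nr4a3 (-1.55 and -1.66). Both were lost with the mouse number as a block (-2.42 and -1.67), and Nr4a2 also at equal cell numbers (-3.48).

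Ccl3 rose in cluster 21 and was lower in NK cluster 6 (347, 261 and 154 CPM against 541, 319.9 and 1312 CPM, -1.31 ± 0.32, adjusted p = 0.00942), where vehicle mouse 3 was highest, the groups overlapped, and the call was lost without that mouse (-0.71), without combination mouse 3 (-1.09) and with DESeq2 (-1.49). The difference was 3.56 ± 0.28 (adjusted p = 4.08e-15, 1.21% of genes called). Lcn2 rose in tumour cluster 23 (35.6, 47.8 and 38.8 CPM against 18.1, 11.6 and 12.8 CPM, 1.501 ± 0.28, adjusted p = 0.00389) and fell in neutrophil cluster 28 (68.2, 52.1 and 65.5 CPM against 418, 476 and 41.4 CPM, -2.50 ± 0.39, adjusted p = 0.000264), where vehicle mouse 3 lay below the combination mice and the call was lost at equal cell numbers (-2.04). The difference was 3.83 ± 0.35 (adjusted p = 1.84e-23, 1.08% called). That p-value took the spread as known and does not measure how far apart the vehicle mice lay. The 2 tumour clusters differed in Lcn2 as well, by -2.17 ± 0.35 (adjusted p = 0.00919), since it was at 36.2, 67.1 and 71.2 CPM against 149, 93.6 and 38.2 CPM in cluster 21 (-0.68 ± 0.36, adjusted p = 0.262). In cluster 21 Lcn2 was called lower without vehicle mouse 3 (-1.065) and with no count filter (-0.72).

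Cd9, a tetraspanin, was higher in alveolar macrophage cluster 26 (8225, 7690.5 and 8158 CPM against 4569, 4489 and 3404 CPM, 0.95 ± 0.10, adjusted p = 3.02e-06) and lower in tumour cluster 23 (903, 914 and 928 CPM against 1202, 1135 and 1307 CPM, -0.41 ± 0.10, adjusted p = 0.0204). The difference was 1.41 ± 0.15 (adjusted p = 6.02e-05, 1.38% called). Krt19 followed the same pattern, at 387, 223 and 263 CPM against 104, 103 and 82.6 CPM in cluster 26 and 1311, 1333 and 1617 CPM against 1907, 1829.8 and 2100.0 CPM in cluster 23, with a difference of 2.03 ± 0.26 (adjusted p = 0.000299). The 8 tumour epithelial markers, Krt19 among them, summed to 300 to 614 CPM against 217 to 258 CPM in cluster 26, and their part was not tested. The Cd9 call in cluster 23 was lost in 5 of 6 leave-one-mouse-out fits, all but that without vehicle mouse 2 (-0.42 to -0.36), and that of Krt19 at equal cell numbers (-0.34).

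Anxa2, a membrane-binding annexin, was higher in macrophage cluster 25 (788, 715 and 812 CPM against 449.9, 557 and 532 CPM) and lower in tumour cluster 21 (1341, 1277 and 1489 CPM against 2144, 2075 and 2608 CPM), with a difference of 1.40 ± 0.17 (adjusted p = 0.000256, 1.57% called). Fxyd5, an ion pump modulator, differed by 1.09 ± 0.20 between B cluster 1 and neutrophil cluster 29 (adjusted p = 0.00185, 1.02% called), where it was at 1805, 1682 and 1923 CPM against 2625, 2576 and 2748 CPM, a call lost without combination mouse 2 (-0.51). The mitochondrial transcripts mt-Nd4l and mt-Cytb were lower in cluster 26 and higher in NK cluster 6 and tumour cluster 23, with differences of 0.94 ± 0.17 between clusters 6 and 26 (adjusted p = 0.000624, 1.4% called) and 0.73 ± 0.15 between clusters 23 and 26 (adjusted p = 0.0194, 1.38% called). Cd74 differed between endothelial cluster 10 and tumour cluster 21 by 2.60 ± 0.36 (adjusted p = 3.55e-09, with the spread taken as known). In cluster 25 the Anxa2 call was lost without vehicle mouse 1 or any 1 combination mouse (0.50 to 0.64), that of mt-Cytb in cluster 23 without combination mouse 1 or vehicle mouse 1 or 3 (0.37 to 0.40), and those of mt-Nd4l and mt-Cytb in cluster 26 in 5 and 4 of 6 leave-one-mouse-out fits.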

How the data were processed

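Single-cell RNA was measured in lung tumours of 12 mice, 3 per treatment, and the fits hold all 12 because the 4 treatments share 1 estimate of the spread. The authors deposited raw UMI counts per gene and cell (32285 genes) with a table of mouse and cluster per cell. The lowest UMI total of a cell in that table was 500 and the highest mitochondrial share 20%, and the treatment of doublets is not given in the sources used here. Cell Ranger and mm10 are named in the submitters' processing notes, whose other tools (bcl2fastq, STAR, Picard, HTSeq, DESeq2, bedtools and R 3.3.0) carry no role there.

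Counts were summed per mouse and cluster where a mouse had at least 10 cells, and tested with edgeR 4.0.16 (R 4.3.3) by its quasi-likelihood test with TMM and filterByExpr, with Benjamini-Hochberg adjustment over the genes tested in a cluster. The standard error was the absolute log2 fold change over the square root of F. Shares were tested in the same way on cell counts over 33 clusters. The joint fit of all clusters held 336 sums and 122 coefficients and used 1 common dispersion of 0.0194. That dispersion was estimated on the most abundant genes because a full estimate took too long. Differences between 2 clusters came from fits of those clusters with the mouse as a block, not from the joint fit as designed. DESeq2 1.42.0 and limma 3.58.1 served as alternatives. On counts simulated from clusters 6, 10, 21, 26 and 30, changes of 2-fold were found in 52%, 29%, 59%, 56% and 25% of genes. Among the calls made on those counts, 4.79%, 5.66%, 7.36%, 3.27% and 7.08% were false. The false share exceeded the level of adjusted p used for calls in clusters 10, 21 and 30.

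Members, lists and tests were chosen with earlier results of these data known. Genes were named per cluster by fold change among those called, apart between groups, called without each mouse and at 5% or more of their highest cluster over the 6 mice pooled. Others were the genes called in most clusters or in both directions, and up to 4 members of each list. Chosen after their values were seen were H2-Ab1, Ifng, Gbp4, Iigp1, Etv5, Ldha, Ifit1, Etv4, Krt7, Ctsd and, in some clusters, Bnip3, Slc2a1 and Fabp4. Positions and transcript lengths came from GENCODE vM21 and promoters from RefSeq, by gene symbol. The mouse numbers did not pair the samples. Some listed genes were not analysed or are not reported here.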

Additional observations from a re-analysis of the deposited data

Results flagged for a closer look

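Each value here was selected because the combination's effect on a gene differed between 2 clusters by a test of that difference, with pairs chosen with the values known. Where a pair was picked for calls in opposite directions, a difference was likely in advance. Log2 change in the first cluster minus that in the second was 3.85 for Nr4a3 and 4.69 for Nr4a2 between tumour cluster 21 and fibroblast cluster 20. It was 3.56 for Ccl3 between tumour cluster 21 and NK cluster 6. Alveolar macrophage cluster 26 exceeded tumour cluster 23 by 1.41 for Cd9 and 2.03 for Krt19. B cluster 1 exceeded neutrophil cluster 29 by 1.09 for Fxyd5, and macrophage cluster 25 exceeded tumour cluster 21 by 1.40 for Anxa2. For the mitochondrial transcripts the differences were 0.94 for mt-Nd4l between clusters 6 and 26 and 0.73 for mt-Cytb between clusters 23 and 26.

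Lcn2 differed by 3.83 between tumour cluster 23 and neutrophil cluster 28 and by -2.17 between tumour clusters 21 and 23. Endothelial cluster 10 exceeded tumour cluster 21 by 1.27 for B2m, 2.60 for Cd74 and 1.45 for H2-K1. It exceeded B cluster 1 by 2.53 for Cd74, 1.52 for H2-Aa, 1.70 for H2-Ab1 and 2.10 for H2-Eb1.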

How the results depend on the processing

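Of 232 called gene values that were recomputed, 163 passed in all 6 fits that left out 1 mouse and 69 were lost in at least 1, and none reversed. Many of these values were named because they passed all 6 fits, so that count was partly fixed in advance. Over all calls the rate was lower, with 304 of 899 passing all 6 in cluster 21 and 77 of 315 in cluster 1. At equal cell numbers 144 of the 232 passed and 71 were lost. With DESeq2 191 passed and 20 were lost. With transcript-length scaling, added after seeing the data, 222 passed and 9 were lost. The remaining values had no result in those fits. The 5216 calls became 8562 with no count filter, 2606 at equal cell numbers and 2682 to 3603 without 1 mouse. The 8 clusters whose share passed became 5 to 7 without 1 mouse. The 881 genes that differed between clusters became 2631 with limma voom and 453 to 725 without 1 mouse. The cause was not tested, beyond the fewer samples or cells of these fits. The mouse numbers did not pair the samples, since same-numbered mice had median correlations of -0.00164, -0.0176 and -0.0257. With the mouse number as a replicate block the calls numbered 5121, the clusters whose share passed 12, and 7 named calls were lost. Cluster 10 had 146 calls with that block against 88, and cluster 20 had 121 against 262. Depth limits small clusters most, with sums as low as 7751 UMIs.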
